A study of Mus musculus with 6 samples.

Results

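The oxidative phosphorylation subunit genes are those that code for the protein subunits of the respiratory chain and of the ATP synthase, and they were examined here in the lens of the newborn mouse with and without conditional deletion of Celf1. Members were chosen by gene symbol alone, from the name series of complex I (Nduf), complex II (Sdh), complex III (Uqcr and Cyc1), cytochrome c (Cycs), complex IV (Cox4 to Cox8 subunits) and complex V (Atp5), with the mitochondrially encoded mt- genes. This rule found 82 of the 13931 genes in the table. By their symbols, 37 of these were placed in complex I, 4 in complex II, 10 in complex III with cytochrome c, 14 in complex IV and 17 in complex V. Ndufa4 and its paralog Ndufa4l2 are thus counted with complex I, although the Ndufa4 protein is now placed in complex IV by many. The members were all nuclear. The table lists 0 mitochondrially encoded genes, which were therefore not analysed here and could not be set against the nuclear ones. Cox4i1, Cox8b and Cox8c were not analysed here either.

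RNA-sequencing was done on whole lenses at P0, the day of birth, with 3 Control and 3 Celf1cKO libraries, each from 2 pooled lenses. CELF1 is an RNA-binding protein that acts on splicing, translation and decay of its target mRNAs. Celf1cKO mice carried 1 germline knockout allele (Celf1lacZKI), 1 conditional allele with loxP sites around exon 5 (Celf1flox) and the Pax6GFPCre transgene, which starts Cre expression in the lens placode. The mice were of a mixed C57BL/6 and FVB background. By their labels the Control lenses were Celf1lacZKI/+ and so would also carry 1 germline knockout allele, whereas in the study's methods the usual control is a Celf1flox mouse that lacks Cre. Which of these applied to the 3 Control libraries was not settled.

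The respiratory chain lies in the inner mitochondrial membrane. Complex I and complex II pass electrons from NADH and succinate to ubiquinone, complex III passes them to cytochrome c, and complex IV passes them to oxygen. Complexes I, III and IV pump protons, and the ATP synthase, complex V, lets the protons flow back through a rotating ring of c subunits to make ATP. Most subunits are coded in the nucleus and a few in mitochondrial DNA. In the lens, the epithelium and the young outer fibers hold mitochondria, and differentiating fiber cells lose them as the organelle-free zone forms.

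The c subunit of the ATP synthase is coded by 3 nuclear genes, Atp5g1, Atp5g2 and Atp5g3, whose mature proteins are the same and whose import signals differ. All 3 lay higher in every Celf1cKO library than in any Control library, as did 23.1% of the 10640 genes above the study's expression threshold. In contrast, Ndufa1 of complex I was reduced, as were 3.44% of those genes. The promoters of these 4 members are therefore shown. The windows are those of RefSeq on GRCm38.p6, each 300 bases long, with 250 bases before and 50 after the RefSeq transcription start, and are printed in the direction of transcription. Capitals mark matches, on either strand, to the core motifs of NRF1 (CGCATGCG), ETS factors (CCGGAAGT), YY1 (AAGATGGCG) and SP factors (GGGCGG) and to the CCAAT box (CCAAT). Where matches overlap they form a single run of capitals.
Atp5g1, chr11:96075582-96075881, minus strand: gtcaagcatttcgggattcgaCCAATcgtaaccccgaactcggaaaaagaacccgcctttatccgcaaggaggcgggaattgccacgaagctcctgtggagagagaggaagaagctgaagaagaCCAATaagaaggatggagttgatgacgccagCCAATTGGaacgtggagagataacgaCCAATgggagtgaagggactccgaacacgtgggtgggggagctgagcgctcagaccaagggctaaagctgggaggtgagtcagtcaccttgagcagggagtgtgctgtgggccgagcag
Atp5g2, chr15:102670998-102671297, minus strand: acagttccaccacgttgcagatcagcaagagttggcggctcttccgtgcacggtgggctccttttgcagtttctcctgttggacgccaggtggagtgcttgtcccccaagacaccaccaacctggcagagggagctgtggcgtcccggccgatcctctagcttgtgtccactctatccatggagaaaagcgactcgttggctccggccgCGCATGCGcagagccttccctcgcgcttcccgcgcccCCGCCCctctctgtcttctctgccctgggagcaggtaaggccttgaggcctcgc
Atp5g3, chr2:73911277-73911576, minus strand: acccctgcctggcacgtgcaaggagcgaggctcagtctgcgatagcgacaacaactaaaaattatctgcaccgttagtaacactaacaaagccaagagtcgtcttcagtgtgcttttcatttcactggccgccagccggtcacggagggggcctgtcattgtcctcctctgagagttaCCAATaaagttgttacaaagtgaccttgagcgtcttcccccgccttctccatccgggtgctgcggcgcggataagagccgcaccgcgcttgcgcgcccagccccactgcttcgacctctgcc
Ndufa1, chrX:37191189-37191488, minus strand: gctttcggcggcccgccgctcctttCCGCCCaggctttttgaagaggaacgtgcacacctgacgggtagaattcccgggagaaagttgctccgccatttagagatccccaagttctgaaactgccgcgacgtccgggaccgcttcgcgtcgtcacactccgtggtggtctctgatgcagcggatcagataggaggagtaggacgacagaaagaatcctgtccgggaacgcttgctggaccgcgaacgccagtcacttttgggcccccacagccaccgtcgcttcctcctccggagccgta
The Atp5g1 window held 5 CCAAT boxes and no match to the other 4 motifs. The Atp5g2 window held 1 NRF1 core and 1 SP box, the Atp5g3 window 1 CCAAT box, and the Ndufa1 window 1 SP box. Of the motifs searched, none was thus common to all 3 c subunit genes. The Ndufa1 window lies wholly upstream of the gene as GENCODE M21 places it, where the 5′ end of the gene is at base 37191163. The Atp5g2 window, with its NRF1 core and SP box, lies wholly within the gene as GENCODE M21 places it. There the 5′ end of Atp5g2 is at base 102672352.

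A RefSeq window was found for 67 of the 82 members. The NRF1 core was in 10 of these (14.9%), compared with 4.03% of the 10833 genes of the table with a window and 1.87% of all 32851 windows of this length. Members with an NRF1 core were Ndufa8, Ndufa11, Cycs, Uqcrc1, Uqcr11, Cox6a1, Atp5g2, Atp5j, Atp5l and Atp5k. The YY1 core was in 7 members (10.4%), compared with 3.23% of the genes of the table and 1.4% of all windows. The ETS core was in 5 members (7.46%), compared with 8.44% and 3.89%, and the CCAAT box in 29 (43.3%), compared with 43% and 37.4%. The SP box was in 27 members (40.3%), compared with 67.7% of the genes of the table and 35.7% of all windows. Of the 7 members that changed, 5 had a window, and 1 of them, Atp5g2, held the NRF1 core. A match is a description of the letters and not evidence of a bound site.

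Celf1 itself, the deleted gene, was at 9.95, 9.94 and 9.34 log2 CPM (the log2 of counts scaled to a common library size) in the Control libraries and at 8.93, 7.66 and 7.83 in the Celf1cKO libraries, so Celf1cKO replicate 1 lay nearest to the Control libraries. The libraries held 40694454 to 44387151 counted reads. Crystallin genes took 45.8% to 46.9% of the reads of Control libraries and 34.7% to 38.5% of those of Celf1cKO libraries. The oxidative phosphorylation members together took 0.613% to 0.672% of Control reads and 0.801% to 0.845% of Celf1cKO reads. After the authors' normalization, which offsets such a change in composition, their summed level was 6355 to 7477 CPM in Control and 7451 to 7717 CPM in Celf1cKO libraries, and these ranges overlap. In whole lenses a change in a transcript per cell and a change in the share of cells that hold it cannot be told apart.

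Of the 82 members, 79 had an average log2 CPM above 1, the expression threshold of the study, and Ndufa4l2, Cox4i2 and Cox7a1 did not. A gene was called elevated or reduced when its log2 fold-change (Celf1cKO minus Control) was beyond 0.58 in that direction and its p-value from limma, adjusted after Benjamini and Hochberg across the whole table, was under 0.05. Among the 79, 6 members were elevated, and over all 10640 genes above the threshold 6.24% were. A single member, Ndufa1, was reduced, and over all genes 3.44% were. Without the fold-change threshold, 11 members passed the adjusted p-value with higher levels, where 9.82% of all genes did, and 1 with a lower level, where 4.75% did. At an unadjusted p under 0.05, 21 members were higher and 2 were lower, where 19.6% and 14.4% of all genes were. In 26 members all 3 Celf1cKO libraries lay above all 3 Control libraries, and over all genes this was so for 23.1%. The reverse held for 2 members, Ndufa1 and Ndufb1, and for 16.9% of all genes. In the remaining 51 members the groups overlapped. All values below are from n = 3 libraries in each group.

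The median log2 fold-change of the 79 members was 0.09, compared with 0.00 over all genes above the threshold, and 59 of the 79 were positive, as were 50.4% of all genes. The median of the members depended on how the libraries were scaled and on single libraries. Other scaling factors moved the median of all genes along with it. With median centring these medians were 0.070 for the members and -0.020 for all genes. Scaled without crystallin genes they were 0.074 and -0.016. The median of the members was 0.034 with quantile normalization, beside 0.0029 for all genes, and 45 members were then positive. It was 0.041 without Control replicate 3, with 47 positive members. Scaled to the total of counted reads, with no offset for the crystallin genes, the median was 0.32 for the members and 0.23 for all genes, with 11 members elevated and 0 reduced (limma, 1 member lower at an unadjusted p under 0.05, where 6.08% of all genes were). Without the fold-change threshold, 48 members passed the adjusted p-value with higher levels under that scaling, where 26.3% of all genes did. With that scaling 77 members and 72.7% of all genes were positive, and 89.1% of all calls were elevated, against 64.5% with the authors' scaling. The number of elevated members was also sensitive to single libraries. It was 5, 0 and 4 in limma fits without Control replicates 1, 2 and 3, and 7, 2 and 0 without Celf1cKO replicates 1, 2 and 3. Without Control replicate 2 or without Celf1cKO replicate 3, 1 gene of the whole table was called, and 22 and 14 members were higher at an unadjusted p under 0.05, where 17.7% and 14.6% of all genes were. Ndufa1 kept its call only in the fit without Celf1cKO replicate 1, and in each other such fit 1 to 3 members were lower at an unadjusted p under 0.05, where 9.76% to 12.7% of all genes were.

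**Figure D1:**
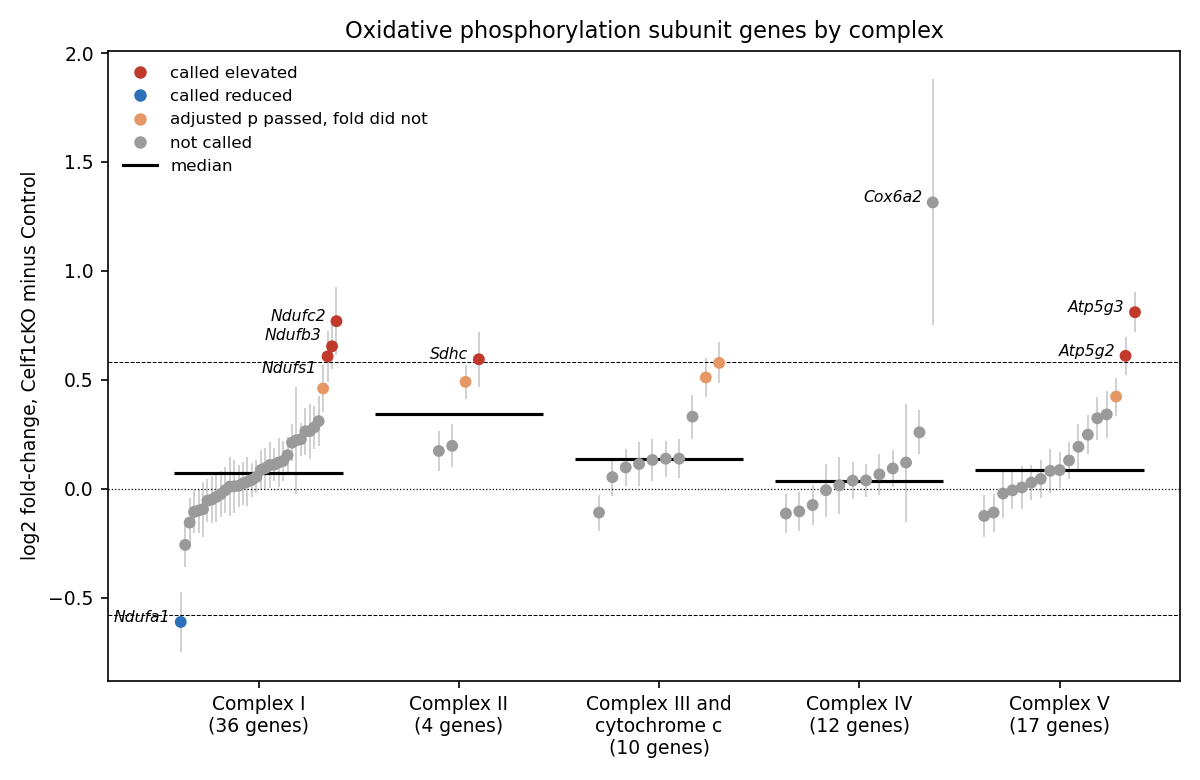
Log2 fold-change (Celf1cKO minus Control) of the 79 members above the expression threshold, grouped by complex and ordered by value, with the standard error of limma as bars, the median of each complex as a black line and the threshold of 0.58 as dashed lines. Most members lie near 0, with 6 elevated members in complexes I, II and V and the single reduced member, Ndufa1, at -0.61.

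The complexes had medians between 0.04 and 0.34. Complex II was the highest with a median log2 fold-change of 0.34 over 4 genes, followed by complex III with cytochrome c at 0.14 over 10 genes, complex V at 0.09 over 17, complex I at 0.07 over 36 and complex IV at 0.04 over 12. When each library was set against the Control mean of each gene, the median of complex II was 0.01, 0.06 and -0.09 in the Control libraries and 0.30, 0.37 and 0.37 in the Celf1cKO libraries. The median of complex III was 0.02, 0.09 and -0.10 in Control and 0.11, 0.19 and 0.11 in Celf1cKO libraries. For these complexes the groups did not overlap. For complexes I, IV and V the groups overlapped, with Control replicate 3 the lowest library in each. Without Control replicate 3 the median log2 fold-change was 0.025 for complex I, 0.027 for complex V and -0.0091 for complex IV, and without Celf1cKO replicate 1 it was -0.0073 for complex IV. With quantile normalization it was 0.022 for complex I, 0.052 for complex V and -0.045 for complex IV. The differences between complexes were not tested.

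**Figure D2:**
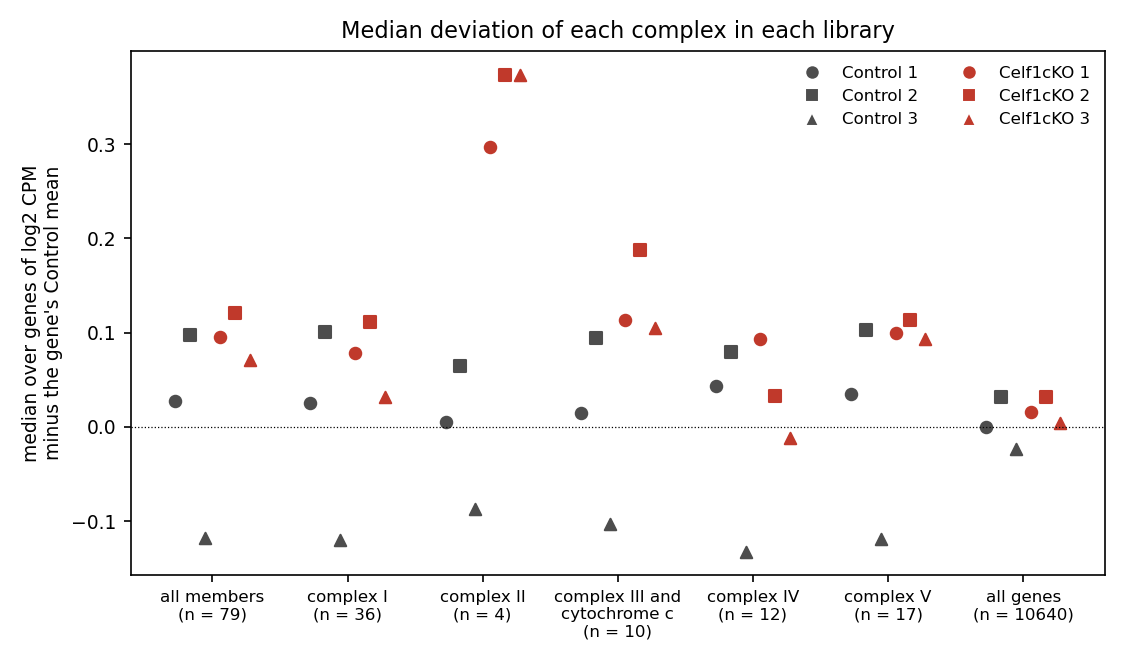
Median, over the genes of each complex, of log2 CPM minus the mean of the gene in the 3 Control libraries, shown for each library, with all genes above the expression threshold at the right. Control replicate 3 is lowest in every complex (-0.12 over all members), and only complex II and complex III with cytochrome c have all Celf1cKO libraries above all Control libraries.

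In complex I, 3 of 36 members were elevated and 1 was reduced, where 6.24% and 3.44% of all genes were. Ndufc2, an accessory subunit of the membrane arm (chr7:97400003-97407802, plus strand, positions here and below from GENCODE M21 on GRCm38), was at 5.93, 5.70 and 5.29 log2 CPM in Control and at 6.39, 6.44 and 6.39 in Celf1cKO libraries. The Celf1cKO libraries agree to within 0.03 (SD) and the Control libraries spread by 0.32 (SD, n = 3), with no overlap. Its log2 fold-change was 0.77 ± 0.16 (SE, limma, adjusted p = 0.0245). The call of Ndufc2 was lost without a variance trend. It was also lost in the separate fits without Control replicate 2, Celf1cKO replicate 2 and Celf1cKO replicate 3. Ndufb3, another accessory subunit of the membrane arm (chr1:58586384-58595964, plus strand), was at 4.19, 4.25 and 4.11 log2 CPM in Control and 4.76, 4.93 and 4.82 in Celf1cKO libraries. Every Celf1cKO library was thus over 0.5 above the Control libraries, a log2 fold-change of 0.65 ± 0.10 (SE, limma, adjusted p = 0.0137). The call of Ndufb3 was lost only in the separate fits without Control replicate 2, Celf1cKO replicate 2 and Celf1cKO replicate 3.

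Ndufs1, the largest catalytic core subunit, which carries iron-sulfur clusters (chr1:63143596-63176833, minus strand), was at 5.49, 5.50 and 5.37 log2 CPM in Control and 5.89, 6.27 and 6.01 in Celf1cKO libraries. Celf1cKO replicate 1 was the nearest to Control, and the groups did not overlap (log2 fold-change 0.61 ± 0.12, SE, limma, adjusted p = 0.0201). Like that of Sdhc below, the call of Ndufs1 was lost with quantile normalization and without a variance trend. It was also lost in every fit without a single library except the fit without Celf1cKO replicate 1. Of its exons, 498 bases are shared with Eef1b2 and Ino80dos on the opposite strand. Of the other core subunits, Ndufs8 (0.31), Ndufv1 (0.26) and Ndufv2 (0.11) had all Celf1cKO libraries above all Control libraries, as had 23.1% of all genes. They were not called, with adjusted p of 0.121, 0.152 and 0.361 by limma. In Ndufs7 (0.09) and Ndufs3 (-0.01) the groups overlapped.

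Ndufv3, an accessory subunit next to the NADH-binding core, passed the adjusted p-value without reaching the fold-change threshold. It was at 6.98, 6.93 and 6.61 log2 CPM in Control and 7.29, 7.32 and 7.29 in Celf1cKO libraries (0.46 ± 0.11, SE, limma, adjusted p = 0.0386). As in Ndufc2, the Celf1cKO libraries lay close together and Control replicate 3 was the lowest.

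Ndufa1, a small membrane arm subunit coded on the X chromosome (chrX:37187588-37191163, minus strand), was the member that fell. It was at 8.08, 8.11 and 7.83 log2 CPM in Control and at 7.67, 7.25 and 7.26 in Celf1cKO libraries. All Celf1cKO libraries were below all Control libraries, with Celf1cKO replicate 1 only 0.16 below Control replicate 3. The log2 fold-change was -0.61 ± 0.14 (SE, limma, adjusted p = 0.0335). Per length of its exons, Ndufa1 had the highest Control level of complex I, at 9.26 log2 RPKM (CPM divided by the exon length in kilobases), where the median of complex I was 5.06. The other X-linked members, Ndufb11 (-0.16) and Cox7b (0.04), did not pass the test. Scaled to the total of reads, the log2 fold-change of Ndufa1 was -0.39 (limma, adjusted p = 0.0526).

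Ndufb1, the next lowest member of complex I, had a log2 fold-change of -0.26 ± 0.10 (SE, limma, adjusted p = 0.133). All 3 of its Celf1cKO libraries, at 5.75, 5.77 and 5.58 log2 CPM, were below the Control libraries, at 5.95, 6.08 and 5.85. GENCODE M21 lists this gene identifier as a noncoding transcript that shares a promoter with another gene.

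In complex II, 1 of 4 members was elevated (6.24% of all genes). Sdhc and Sdhd are the membrane anchors that hold the heme and the ubiquinone site, and Sdha and Sdhb are the flavoprotein and iron-sulfur subunits that oxidize succinate. Sdhc (chr1:171127165-171150603, minus strand) was at 4.44, 4.43 and 4.62 log2 CPM in Control and 4.88, 5.26 and 5.13 in Celf1cKO libraries. The groups did not overlap, and the log2 fold-change, 0.59 ± 0.13 (SE, limma, adjusted p = 0.0285), was just inside the threshold. The call was lost with log2(CPM + 1) values (0.57), with scaling without crystallin genes (0.57), with median centring (0.57), with quantile normalization (0.54) and without a variance trend (adjusted p = 0.0681 by limma). It was also lost in every fit without a single library except the fit without Celf1cKO replicate 1 (log2 fold-change 0.51 to 0.70, limma, adjusted p = 0.00896 to 0.126). Sdhd was at 5.53, 5.51 and 5.46 log2 CPM in Control and 5.97, 6.01 and 5.99 in Celf1cKO libraries. These libraries were the tightest of the complex, with SDs of 0.04 and 0.02, and the log2 fold-change was 0.49 ± 0.08 (SE, limma, adjusted p = 0.0139). Sdha (0.20) and Sdhb (0.17) did not pass the test. The log2 ratio of Sdhd to Sdhb in the same library, which no scaling of a library changes, was -1.65, -1.76 and -1.52 in Control and -1.39, -1.31 and -1.28 in Celf1cKO libraries. That of Sdhc to Sdha was -2.29, -2.48 and -2.001 in Control and -1.97, -1.73 and -1.88 in Celf1cKO libraries. For these pairs every Celf1cKO library lay above every Control library, by 0.03 at the closest for Sdhc to Sdha. Both pairs were chosen after the values were seen, as were the ratios within complex V.

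In complex III with cytochrome c, 0 of 10 members were called by limma or by voom, and 3 were higher at an unadjusted p under 0.05 (19.6% of all genes). These were the 3 electron carriers on the way from ubiquinol to complex IV. Uqcrfs1, the Rieske iron-sulfur protein, was at 5.90, 5.76 and 5.67 log2 CPM in Control and 6.26, 6.41 and 6.39 in Celf1cKO libraries. It passed the adjusted p-value and just missed the fold-change threshold (0.58 ± 0.09, SE, limma, adjusted p = 0.0149). Cycs, somatic cytochrome c, was at 4.91, 4.85 and 4.91 log2 CPM in Control and 5.34, 5.50 and 5.36 in Celf1cKO libraries (0.51 ± 0.09, SE, limma, adjusted p = 0.0174). Cyc1, the cytochrome c1 subunit, was at 5.94, 5.99 and 5.72 in Control and 6.12, 6.27 and 6.25 in Celf1cKO libraries (0.33 ± 0.10, SE, limma, adjusted p = 0.0746). In each of the 3 every Celf1cKO library lay above every Control library, as was so for 23.1% of all genes. Cycs has 3 near-identical annotated copies, 2 of them pseudogenes, so its counts are uncertain. The 7 other members, which are the core proteins Uqcrc1 and Uqcrc2 and small accessory subunits, lay between -0.11 (Uqcrh, the hinge protein) and 0.14, and their groups overlapped.

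In complex IV, 0 of 12 members were called by limma or by voom, and 1 was higher at an unadjusted p under 0.05 (19.6% of all genes). Here 11 of the 12 had overlapping groups, as did 6380 of all 10640 genes above the threshold. The exception was Cox7a2l, which takes part in joining complex III to complex IV, at 0.26 ± 0.10 (SE, limma, adjusted p = 0.135). The lowest was Cox5a at -0.11, and the subunits Cox6c, Cox7b and Cox8a lay within 0.04 of 0. Cox6a2, the isoform of heart and skeletal muscle, had the highest log2 fold-change of all members, 1.31 ± 0.56 (SE, limma, adjusted p = 0.169). It was at -0.10, 0.61 and 2.32 log2 CPM in Control and 2.05, 2.47 and 2.26 in Celf1cKO libraries. Control replicate 3 lay among the Celf1cKO libraries, so the groups overlapped, and the fit without that library gave 2.003 and called the gene. Of 7 skeletal muscle markers the table lists 1, Des, at 0.296 to 0.737 CPM in Control and 0.365 to 0.745 CPM in Celf1cKO libraries.

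In complex V, 2 of 17 members were elevated (6.24% of all genes), both of the c-ring. Atp5g3 (chr2:73908447-73911326, minus strand) was at 6.67, 6.48 and 6.59 log2 CPM in Control and 7.28, 7.503 and 7.38 in Celf1cKO libraries. All Celf1cKO libraries were over 0.5 above the Control libraries, a log2 fold-change of 0.81 ± 0.09 and a fold of 1.75, and its adjusted p was the lowest of the members (SE, limma, adjusted p = 0.00898). The call of Atp5g3 was lost only in the separate fits without Control replicate 2 and without Celf1cKO replicate 3. Atp5g2 (chr15:102662864-102672352, minus strand) was at 5.04, 5.16 and 4.997 log2 CPM in Control and at 5.68 in each of the 3 Celf1cKO libraries (0.61 ± 0.09, SE, limma, adjusted p = 0.0112). The call of Atp5g2 was lost with quantile normalization. It was also lost in the separate fits without Control replicate 2, Control replicate 3 and Celf1cKO replicate 3. Within its exons, 75 bases are those of a microRNA gene, Mir688, on the same strand. Atp5g1 was at 5.70, 5.83 and 5.55 log2 CPM in Control and 5.93, 6.15 and 6.02 in Celf1cKO libraries. It did not pass the test (0.34 ± 0.11, SE, limma, adjusted p = 0.0797) although its groups did not overlap, and its counts are uncertain because 1 near-identical pseudogene is annotated. The promoters of these genes are those printed above.

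The 3 c subunit genes summed to 186, 182 and 175 CPM in Control and to 267, 303 and 283 CPM in Celf1cKO libraries. Atp5g3 made up 54.5%, 49.0% and 55.0% of this sum in Control and 58.04%, 59.8% and 59.0% in Celf1cKO libraries. The share of Atp5g1 was 27.9%, 31.3% and 26.7% in Control and 22.8%, 23.4% and 23.0% in Celf1cKO libraries. Neither share overlapped between the groups, whereas that of Atp5g2 did, at 17.6% to 19.7% in Control and 16.9% to 19.1% in Celf1cKO libraries. Per length, Atp5g3 was the highest of the 3 in Control at 5.45 log2 RPKM, followed by Atp5g2 at 4.32 and Atp5g1 at 3.40. The order of the last 2 rests on exon lengths merged over all annotated transcripts, 1675 bases for Atp5g2 and 4912 for Atp5g1. By mean log2 CPM in Control, Atp5g1 was the higher, at 5.69 against 5.07.

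Atp5b, the catalytic beta subunit and the member with the most reads, was at 9.97, 10.08 and 9.77 log2 CPM in Control and 9.997, 10.03 and 10.03 in Celf1cKO libraries, a log2 fold-change of 0.08 ± 0.10 (SE, limma, adjusted p = 0.63). Its partner Atp5a1, the alpha subunit, was at 8.69, 8.71 and 8.49 log2 CPM in Control and 9.03, 9.06 and 9.06 in Celf1cKO libraries. It passed the adjusted p-value without reaching the fold-change threshold (0.42 ± 0.09, SE, limma, adjusted p = 0.0259). These subunits alternate in the catalytic head in equal number, and the ratio of their transcripts differed between the groups. The log2 ratio of Atp5a1 to Atp5b was -1.28, -1.37 and -1.28 in Control and -0.97 in each of the 3 Celf1cKO libraries. The summed c subunit genes against Atp5b were at -2.43, -2.57 and -2.32 in Control and -1.94, -1.79 and -1.89 in Celf1cKO libraries, which is 0.57 higher on the log2 scale and a fold of 1.48. With 3 libraries in each group an exact permutation test of such a ratio cannot give a p under 0.1, and none was run.

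The log2 fold-changes of the other parts of the ATP synthase lay closer to 0. The central stalk (Atp5c1, Atp5d and Atp5e) had a median log2 fold-change of 0.09, the peripheral stalk (Atp5pb, Atp5h, Atp5j and Atp5o) 0.04 and 5 other membrane subunits (Atp5j2, Atp5k, Atp5l, Atp5md and Atp5mpl) 0.01. Atp5mpl was the highest of these at 0.32 (limma, adjusted p = 0.0768). Atp5k, the e subunit, was the lowest member of the complex at -0.12. Its sign turned when libraries were scaled to total reads, under which 18 members in all turned positive, among them Cox5a, Uqcrh, Cox6a1, Cox7a2 and Ndufs3.

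**Figure D3:**
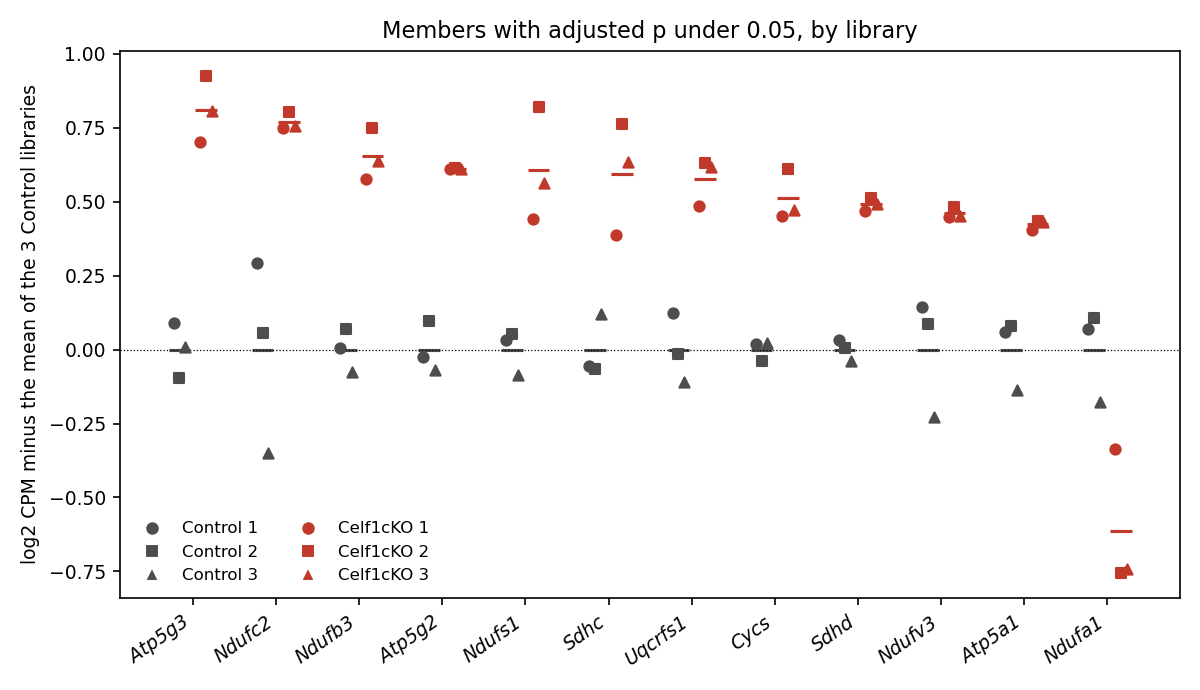
Log2 CPM minus the mean of the 3 Control libraries for the 12 members whose adjusted p-value (limma) was under 0.05, with each library as a point and the mean of each group as a short line. The Celf1cKO means of the 11 higher members lie 0.42 to 0.81 above the Control mean, that of Ndufa1 is at -0.61, and no group overlaps the other.

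**Figure D4:**
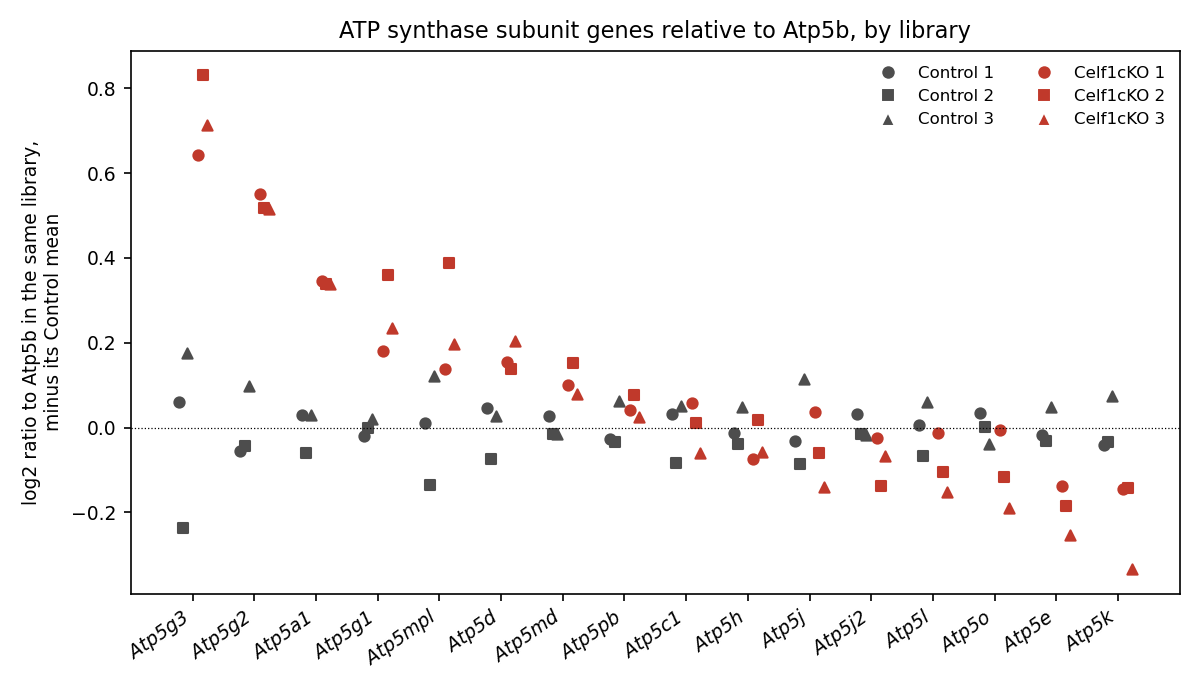
Log2 ratio of each ATP synthase gene to Atp5b in the same library, minus the mean of that ratio in the 3 Control libraries, ordered by the difference between the groups. Of the 16 ratios, 7 lie higher in all Celf1cKO libraries than in any Control library (Atp5g3, Atp5g2, Atp5a1, Atp5g1, Atp5mpl, Atp5d and Atp5md), 3 lie lower (Atp5j2, Atp5e and Atp5k) and 6 overlap. All share Atp5b as denominator, and the same count for other genes over Atp5b was not made. By level rather than ratio, 23.1% of all genes lie higher and 16.9% lower in this way.

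Isoform families differed far more in level than between the groups. In Control lenses Cox6a1 was at 7.41 log2 RPKM and Cox6a2 at 1.501, Cox6b1 was at 7.40 and Cox6b2, the testis isoform, at 1.04, and Cox7a2 was at 6.51 and Cox7a1, the muscle isoform, at -0.01. Ndufa4 was at 5.77 log2 RPKM and Ndufa4l2 at 0.17. The widely expressed isoform was thus the higher of each pair by over 5 on the log2 scale. The log2 fold-changes were -0.10 for Cox6a1, 0.09 for Cox6b1, 0.12 for Cox6b2, -0.07 for Cox7a2, 0.12 for Ndufa4 and 0.02 for Cox8a, and none passed the test. Complex IV had the highest median level of the complexes in Control, at 6.26 log2 RPKM, followed by complex III at 5.67, complex V at 5.22, complex I at 5.06 and complex II at 4.95. Exon lengths are those of all annotated transcripts of a gene merged, so genes with long minor transcripts are understated on this scale.

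The values of Ndufa4l2 and Cox4i2, both below the expression threshold, are given with those of vessel markers. Ndufa4l2, a paralog of Ndufa4 that is induced by hypoxia and abundant in pericytes, was at 1.23, -0.59 and 0.25 log2 CPM in Control and at 0.68, -2.11 and -1.02 in Celf1cKO libraries. Cox4i2, the hypoxia-responsive isoform of subunit 4, was at 0.06, -0.23 and -0.22 in Control and at 0.04, -1.001 and -0.70 in Celf1cKO libraries. In both genes Celf1cKO replicate 1 lay within the Control range and replicate 2 was the lowest. The 6 pericyte markers, all in the table, summed to 137, 114 and 139 CPM in Control and 99.3, 23.6 and 63.5 CPM in Celf1cKO libraries. The 6 endothelial markers, also all in the table, summed to 113, 91.2 and 99.7 CPM in Control and 109, 22.2 and 52.6 CPM in Celf1cKO libraries. Both sums had the same order within the Celf1cKO libraries as Ndufa4l2 and Cox4i2. The part of these cells in the values of both genes was not tested. Neither gene passed the test, with log2 fold-changes of -1.11 and -0.43 (limma, adjusted p = 0.36 and 0.456). Of the 4 pericyte markers above the expression threshold 0 were called by limma, with 2 lower at an unadjusted p under 0.05, 1 was reduced by voom, and 2 were reduced in the limma fit with the replicate number as a block. Over all 10640 genes above the threshold, 14.4% were lower at that unadjusted p, 403 were reduced by voom and 523 with the block.

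**Figure D5:**
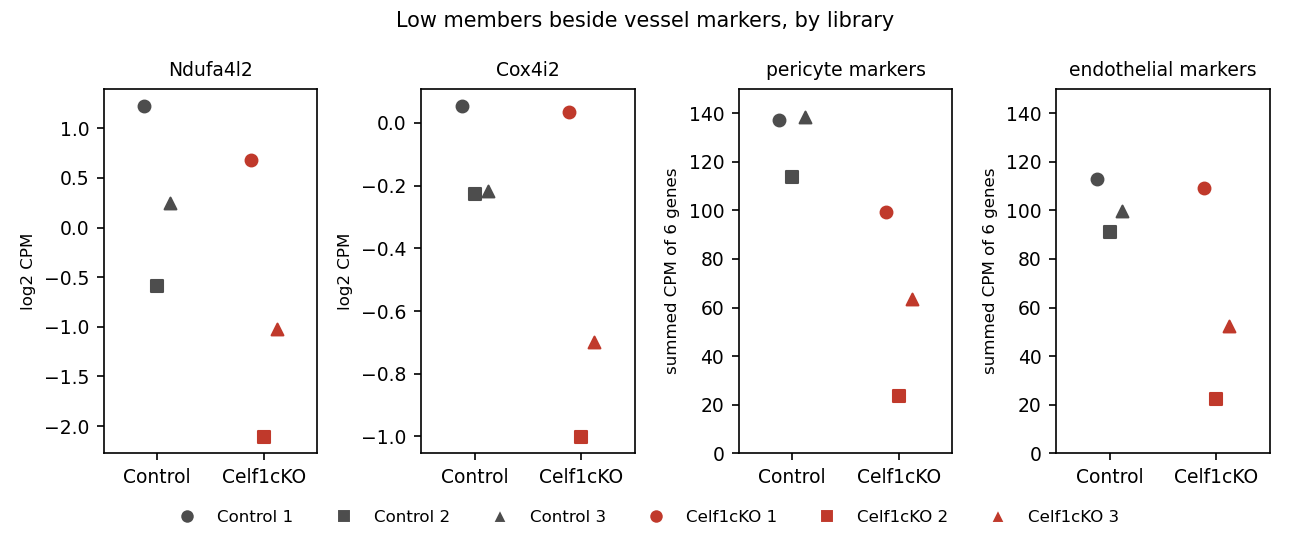
Log2 CPM of Ndufa4l2 and Cox4i2 and summed CPM of 6 pericyte and 6 endothelial marker genes, by group, with each library as a point. In all panels Celf1cKO replicate 1 is the highest and replicate 2 the lowest of the Celf1cKO libraries.

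Of the 7 lens markers 6 were in the table, at a sum of 171364 to 193193 CPM in Control and 137705 to 143706 CPM in Celf1cKO libraries. Bfsp1 (a fiber cell filament protein, log2 fold-change -1.47) and Foxe3 (an epithelial transcription factor, -2.01) were reduced among them, where 3.44% of all genes were. Other lists were low or absent: 3 of 5 macrophage markers summed to at most 6.58 CPM, 3 of 5 retina markers to at most 16.7 CPM and 1 of 4 erythroid markers to at most 1.35 CPM, and 0 of 4 cornea and skin markers were in the table. The 3 of 4 markers of pigmented epithelium in the table summed to 22.7 to 30.3 CPM in Control and 16.5 to 23.7 CPM in Celf1cKO libraries. Most of their reads were from Mitf, which was reduced (-0.72), where 3.44% of all genes were. The other 2, Dct (1.07) and Tyr (0.44), did not pass the test (limma, adjusted p = 0.484 and 0.684). The part of cell composition in the changes of the members was not tested.

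Genes that build the complexes rather than form them were examined by lists of assembly factors. Of the assembly factors above the expression threshold, 17 act on complex I, 4 on complex II, 6 on complex III, 19 on complex IV and 4 on complex V. The list of complex I had 0 called members by limma and by voom, 0 at an unadjusted p under 0.05, and a median log2 fold-change of -0.01. Over all genes, 19.6% were higher and 14.4% lower at that unadjusted p. For complex II, 1 of 4, Sdhaf4, a chaperone of Sdha, was elevated (0.73, limma, adjusted p = 0.0415), where 6.24% of all genes were. The list median was -0.16. For complex III, 0 were called by either method, 1 was lower at an unadjusted p under 0.05 (14.4% of all genes), and the median was 0.00. For complex IV, 3 of 19 were elevated (6.24% of all genes), and the median was -0.10. These were Lrpprc, which stabilizes mitochondrial mRNAs (1.12, limma, adjusted p = 0.0187), Cox15, of heme A synthesis (0.83, adjusted p = 0.0393), and Cox14, a chaperone of the newly made Cox1 protein (0.59, adjusted p = 0.0193). Lrpprc was at 4.97, 5.004 and 5.02 log2 CPM in Control and 5.65, 6.52 and 6.19 in Celf1cKO libraries, and the groups did not overlap. For complex V, 1 of 4, Atpaf2, which chaperones the alpha subunit, was reduced (-0.60, limma, adjusted p = 0.0425), where 3.44% of all genes were. Atp5a1, which codes for that subunit, passed the adjusted p-value with a higher level.

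Among 16 regulators of mitochondrial biogenesis above the threshold, 0 were elevated by limma or by voom and none was higher at an unadjusted p under 0.05, where 19.6% of all genes were. Of the 16, 1 was reduced, Top1mt, the mitochondrial topoisomerase (-0.64, limma, adjusted p = 0.0376), where 3.44% of all genes were. The median of the list was -0.03. Among 17 hypoxia response genes, Ldha (1.45, adjusted p = 0.0343) and Pgk1 (1.33, adjusted p = 0.0094), both enzymes of glycolysis, were elevated by limma (6.24% of all genes). The list went both ways, with 5 genes higher and 3 lower at an unadjusted p under 0.05, where 19.6% and 14.4% of all genes were. Its median was -0.08. In the limma fit with a block by replicate number, 4 genes of this list were elevated and 1 was reduced. With that block, 756 of all 10640 genes above the threshold were elevated and 523 were reduced. Among 12 genes of general mitochondrial content, such as outer membrane channels and import proteins, 0 were called by limma or by voom, 6 were higher at an unadjusted p under 0.05 (19.6% of all genes), and the median was 0.21. Of these, 3 passed the adjusted p-value, and they were the 3 outer membrane channel genes Vdac1 (0.39), Vdac2 (0.56) and Vdac3 (0.49). The medians of these lists stand beside 0.09 for the oxidative phosphorylation members and 0.00 for all genes.

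Near-identical copies bear on the counts of some members. Of the 82, 16 have another annotated gene with at least 97% identity over at least 150 bases of exon, and for 15 of them a copy is a pseudogene. None of the 7 called members is among these 16. On the same strand 5 members share exon bases with another gene, and on the opposite strand 26 do. The libraries were strand-specific, but whether the counting used the strand was not stated.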

How the data were processed

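RNA was sequenced by the authors as strand-specific, paired-end libraries from whole P0 lenses. The submitters' processing notes name STAR 2.7.8a, featureCounts 2.0.0 and GRCm38.p6, and the study's methods add that the authors kept uniquely mapped reads and filtered genes by a low CPM threshold. The annotation and the strand setting of the counting were not given in the sources used here. The deposited values of each library are log2 CPM with a prior count of 2, normalized by the authors. The authors also deposited the average log2 CPM, which set the expression threshold of 1, and the log2 fold-change, F statistic (a score), p-value and FDR of the authors' own edgeR test, which were not used. All 6 library columns were mapped to samples by their names, and 0 were left out.

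The reads behind each deposited log2 CPM value were recovered from the spacing of the values in each library. The lowest value of a library was taken to stand for no reads. The prior count and library sizes were then derived from that spacing. Of the recovered values, 100% were whole to within 0.01 reads. Depth was 40694454 to 44387151 reads per library. The floor of 3 reads corresponds to 0.0609 to 0.0807 CPM and covers counting error only. The deposited log2 CPM values of all 13931 genes were fitted with limma 3.58.1 (R 4.3.3), with a variance trend and no block, and p-values were adjusted over all genes by the Benjamini-Hochberg method. Called genes had an adjusted p under 0.05, a log2 fold-change beyond 0.58 and an average log2 CPM above 1. The procedure was tested on simulated counts with known changes and without any replicate effect. That test checked the fitting code and does not bear on how stable the calls are here. Alternatives were a replicate block, voom on the recovered reads, log2(CPM + 1) values, 4 other scalings and those named in the closing section.

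The labels give both groups replicate numbers 1 to 3. Deviations from the group means correlated at 0.26, 0.39 and 0.38 between same-numbered libraries across groups, and between -0.39 and -0.01 for the other pairs. Deviations from a group mean cancel out for each gene, so positive correlations in some pairs force negative ones in others. A pairing by number was therefore used only as a block in an alternative fit. The main values, calls and adjusted p-values are from the limma fit without it. The pairing comes from these data and not from a stated design. The replicates are separate pools of lenses.

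Members, lists and ratios were chosen with earlier results of these data known. The text names called members, the highest and lowest of each complex, catalytic and core subunits (with an exception that is not reported here) and isoform families, and genes of the other lists that were called. Positions, exon lengths and copies (blastn 2.17.0) were taken from the GENCODE M21 annotation of GRCm38, which holds 13928 of the gene identifiers, and promoters from RefSeq. Figures were drawn with matplotlib 3.10.9.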

Additional observations from a re-analysis of the deposited data

How the results depend on the processing

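With the replicate block the same 6 members were elevated and Ndufa1 was reduced, and 1279 genes of the whole table were called against 1030 without it. The block changed no call among the named members, and of the other lists it changed counts of calls for hypoxia response genes (4 elevated and 1 reduced) and pericyte markers (2 reduced). Over all 10640 genes above the expression threshold it gave 756 elevated and 523 reduced. Without a variance trend 421 genes were called, with 3 members elevated (Atp5g2, Atp5g3 and Ndufb3) and 0 reduced, 1 being lower at an unadjusted p under 0.05 in limma, where 12.8% of all genes were. Scaling to total reads gave 1867 calls, 11 members elevated and 0 reduced, and medians of 0.32 for all members, 0.30 for complex I, 0.57 for complex II, 0.36 for complex III, 0.26 for complex IV and 0.31 for complex V. It also turned 18 members positive, of which the named ones are Atp5k (0.10), Cox5a (0.11), Uqcrh (0.12), Cox6a1 (0.12), Cox7a2 (0.15) and Ndufs3 (0.22). Quantile normalization gave 3 elevated members, turned 14 members negative and gave medians of 0.26 for complex II and 0.046 for complex III. Without the fold-change threshold 1550 genes passed, among them 11 members with higher levels. Cox8a turned to -0.0045 when scaled without crystallin genes, -0.0083 with median centring and -0.089 with quantile normalization. Leaving out single libraries gave 1 to 1916 calls, 0 to 7 elevated and 0 to 1 reduced members. It moved the log2 fold-change of Atp5b between -0.0020 and 0.15, of Cox6b2 between -0.051 and 0.30, of Ndufs3 between -0.11 and 0.059 and of Cox8a between -0.12 and 0.10. The cause of these moves was not tested. Over all named members and alternatives, 508 values kept direction and side of the threshold, 11 became calls, 37 lost the call and 17 reversed. Most named members were not called in the main fit, so the 508 do not measure how stable the calls were. Only the 6 elevated members and Ndufa1 could lose a call. All of them lost it without Control replicate 2 and again without Celf1cKO replicate 3.

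With 3 libraries in each group, calls across the table rest on few samples, and the loss of 1 library can end nearly all of them. The direction of small changes depended on how the libraries were scaled, and no scaling factor of a library changes a ratio within it. Subunit proteins, assembled complexes and mitochondrial DNA were not measured, and the Control genotype was not settled.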

Other observations

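Across the 79 members above the expression threshold, the log2 fold-change had a Spearman correlation of 0.13 with exon length and -0.17 with average level, beside -0.04 and 0.18 over 10638 genes. These are correlations across genes of the same libraries, which are not independent. In the 26 members with the shortest exons the median log2 fold-change was 0.06, in the 26 of middle length 0.10 and in the 27 longest 0.14. Members without the 7 called genes had correlations of 0.10 with exon length and -0.08 with level.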
